A study of Mus musculus with 6 samples.

Results

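The genes described here are 10 regulators of the ATF4 and CHOP stress response, namely *Atf4*, *Ddit3* (which encodes CHOP), *Trib3*, *Chac1*, *Atf3*, *Atf5*, *Cebpb*, *Sesn2*, *Ddit4* and *Ppp1r15a*. They were chosen by name, and their levels are the estimated read counts summed over the transcripts of each gene. Of 36137 genes in the tables, 18506 had at least 10 counts in total and were tested, and all 10 regulators were among them. RNA of bone marrow–derived macrophages (BMDMs) was sequenced in 3 WT and 3 Drp1 KO libraries to ask how loss of DRP1, a GTPase that divides mitochondria, alters macrophage RNA under in vitro ischemia. On day 7 of culture the cells of both groups were placed in hypoxia with serum starvation (HSS) for 8 hours at 2.1% oxygen, according to the labels. No library without HSS was analysed here, so a response to HSS itself was not measured. WT cells came from LysM-Cre+/- Drp1+/+ mice and Drp1 KO cells from LysM-Cre+/- Drp1 fl/fl littermates, so that both groups carry the Cre transgene, which the *LysM* promoter drives in myeloid cells. The Cre line was on a C57BL/6J background, and the methods give the age of the mice, of both sexes, as 8 to 12 weeks. The methods state that marrow of 2 mice per genotype was pooled, and the labels call the 3 libraries of each genotype biological replicates. Whether each library came from its own pool is not stated, so p-values measure the spread between these libraries.

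ATF4 is a bZIP transcription factor of the integrated stress response. When a stress kinase phosphorylates the initiation factor eIF2, most translation falls but the mRNA of *Atf4* is translated better, because short reading frames in its 5′ leader then let more ribosomes reach the main start. ATF4 with C/EBP partners raises genes of amino acid supply and a second tier of regulators, among them CHOP, TRIB3, CHAC1, SESN2 and DDIT4. In mitochondrial stress the same pathway can be started through the protease OMA1 and its substrate DELE1. Transcript levels read only the RNA step of this response, not the amount of ATF4 or CHOP protein.

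Under HSS, 5 of the 10 regulators, *Trib3*, *Chac1*, *Ddit3*, *Ddit4* and *Atf4*, had fold changes of 1.45 to 2.02 in Drp1 KO over WT BMDMs. *Sesn2* and *Ppp1r15a* had fold changes of 1.21 each, and *Atf5*, *Atf3* and *Cebpb* lay between 0.955- and 1.09-fold. The first 7 genes were higher in Drp1 KO in each of the 3 pairs of libraries with the same number, as were 23.7% of all genes. In the fit of genotype alone only *Trib3* passed an adjusted p of 0.05, where 2.29% of all genes were called higher and 1.06% lower. With the library number as a block, which compares Drp1 KO with WT within pairs, all 5 passed, where 6.73% of all genes were called higher and 5.22% lower, and none of the 10 passed as lower in either fit. That libraries of the same number form pairs was inferred from these same data and is not a stated design. The criteria of the study, a minimum fold change and a p of 0.05 before adjustment, applied to the edgeR fit of genotype alone passed the same 5, beside 7.19% of all genes called higher by them. Applied to DESeq2, the tool of the study, they passed 4, beside 6.36% of all genes, and *Ddit3* did not pass (log2 fold change 0.85 ± 0.510). By adjusted p DESeq2 called *Trib3* and *Ddit4*, beside 5.05% of all genes called higher. The median log2 fold change was 0.40 over the 10 regulators and 0.00 over all genes tested. *Trib3* was no longer called without Drp1 KO library 1 or 2 or WT library 2 or 3 (adjusted p = 0.0734 to 0.199, edgeR) or with counts scaled for transcript length (adjusted p = 0.150). With such scaled counts none of the 10 was called in the paired fit either, where only 1 of all genes was.

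**Figure D1:**
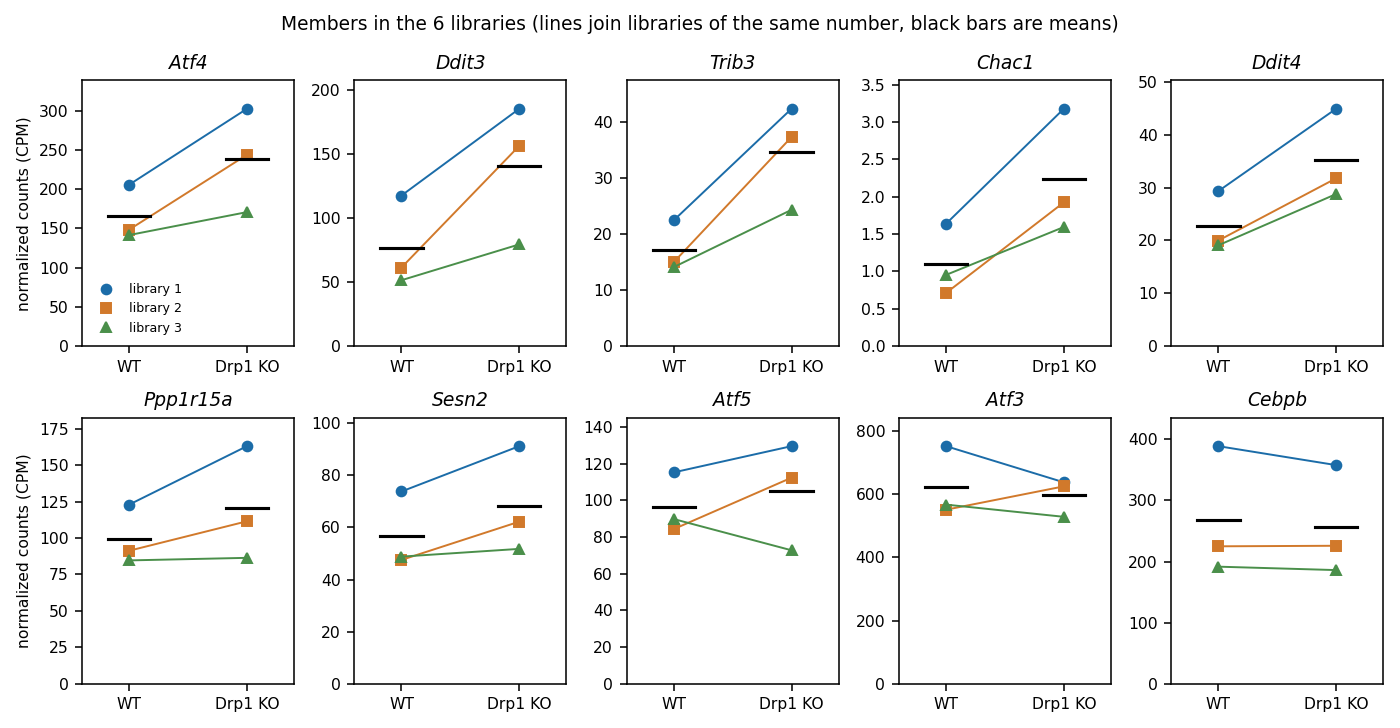
Counts scaled to library size (CPM, vertical axes from 0) of the 10 regulators in WT and Drp1 KO BMDMs. Points are single libraries, lines join the libraries of the same number, and black bars are group means over 3 libraries. Libraries 1 lie highest in both groups in each panel, and the lines of the 5 genes in the top row rise from WT to Drp1 KO in all 3 pairs.

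Depth was 23389488 to 32231206 estimated reads per library, and 3 reads correspond to 0.0917 to 0.136 CPM. Libraries 1 of both genotypes stood apart from libraries 2 and 3: they were the shallowest of their groups, and mitochondrially encoded RNA took 0.297% and 0.342% of their counts against 0.494% to 0.690% in the others. All 8 macrophage markers were above the level of 3 reads in the 6 libraries, with summed levels of 13412 to 14811 CPM in WT and 11992 to 14417 CPM in Drp1 KO. Summed neutrophil markers were 90.7 to 98.8 CPM in WT and 119 to 222 CPM in Drp1 KO. Of the 9 tested, 8 were higher in Drp1 KO, with a median log2 fold change of 1.03, and none was called. *Ly6g* was at 0 in every library. The part of neutrophils in the levels below was not tested. *Dnm1l*, the gene of DRP1, had 72.7, 69.9 and 75.1 CPM in WT and 58.7, 60.7 and 66.3 CPM in Drp1 KO (log2 fold change -0.23 ± 0.0921 SE, adjusted p = 0.248, edgeR). A sum over whole transcripts still counts reads outside a deleted exon, so it does not measure recombination. In bulk RNA, a change in the share of cells that express a gene cannot be told apart from a change in RNA per cell.

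The 3 promoter segments given here are shown because they hold the core of the C/EBP-ATF response element, at which ATF4 binds with C/EBP partners. The letters TGATGNAA were searched on both strands from 250 bases before to 50 bases after the start of the main transcript of each gene (GRCm39, GENCODE). They occurred in 3 of 10 regulators and in 3.48% of the 18506 promoters of the genes tested. Each of the 3 has C at the free base (TGATGCAA), a form found in 0.713% of the promoters. The sequences are given 5′ to 3′ on the strand of the gene, where the match, in capitals, reads as its reverse complement.
Ddit3, chr10:127126351-127126378 (+): ttgccaaacaTTGCATCAtccccgcccc
Chac1, chr2:119181520-119181547 (+): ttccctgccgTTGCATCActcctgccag
Atf3, chr1:190915623-190915650 (-): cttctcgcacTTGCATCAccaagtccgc
The matches begin 199, 159 and 103 bases upstream of the start. That of *Ddit3* lies within the span of a longer *Ddit3* transcript, outside its exons, and in exons of the neighboring genes Gm66222 and Gm4189, that of *Chac1* in the 5′ UTR of a longer *Chac1* transcript, and that of *Atf3* in introns of longer *Atf3* transcripts. Of these genes, *Ddit3* and *Chac1* passed the paired fit and *Atf3* did not, and *Trib3*, *Ddit4* and *Atf4*, which passed it, have no match in this window. CCAAT occurred in 7 of 10 regulators and 39.1% of promoters, and TGACG in 6 of 10 and 24.2%. A match is a run of letters and says nothing about binding in these cells.

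*Atf4* itself had 206, 149 and 142 CPM in the 3 WT libraries and 303, 244 and 171 CPM in the Drp1 KO libraries. The groups overlap, since WT library 1 lies above Drp1 KO library 3, but within each numbered pair the Drp1 KO library is the higher. The log2 fold change was 0.53 ± 0.202 (SE; adjusted p = 0.218, edgeR quasi-likelihood test), and 0.51 ± 0.0891 with the pairs as a block (adjusted p = 0.00442). The pairs differed by 0.56, 0.71 and 0.27 on the log2 scale, smallest in libraries 3. Without Drp1 KO library 1 the log2 fold change by genotype alone was 0.31, and with any other library left out it was 0.42 to 0.73.

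*Ddit3*, the gene of CHOP, a C/EBP-family protein known for promoting cell death in prolonged stress, had 118, 61.5 and 51.6 CPM in WT and 186, 157 and 79.6 CPM in Drp1 KO. WT library 1 again lies within the Drp1 KO range. Its log2 fold change was 0.87 ± 0.336 (adjusted p = 0.225, edgeR), and in the paired fit 0.88 ± 0.125 (adjusted p = 0.00147). WT library 1 was 2.28-fold above WT library 3, a wider gap than the fitted difference between genotypes of 1.83-fold. The log2 fold change ran from 0.60 without Drp1 KO library 1 to 1.31 without WT library 1.

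*Trib3* encodes a pseudokinase that binds ATF4 and dampens its activity and also inhibits AKT. It had 22.5, 15.03 and 14.1 CPM in WT and 42.4, 37.4 and 24.4 CPM in Drp1 KO. It was the only regulator whose groups did not overlap, beside 11.7% of all genes whose Drp1 KO libraries all lay above the WT libraries. The log2 fold change was 1.01 ± 0.224 (adjusted p = 0.0383, edgeR), and 1.01 ± 0.109 with the pairs as a block (adjusted p = 0.000263). An exact two-sided permutation test over the libraries gave p = 0.1, the smallest that 3 against 3 allow.

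*Chac1*, which encodes an enzyme that degrades glutathione, was the least abundant of the 10. It had 1.64, 0.712 and 0.954 CPM in WT, from 38, 19 and 28 reads, and 3.18, 1.92 and 1.59 CPM in Drp1 KO, from 70, 63 and 52 reads. WT library 1 was just above Drp1 KO library 3, and the other WT libraries were below every Drp1 KO library. The log2 fold change of 1.01 ± 0.378 had an adjusted p of 0.207 (edgeR), and that of the paired fit, 1.03 ± 0.240, an adjusted p of 0.0193. The paired call of *Chac1* was lost without pair 2 (adjusted p = 0.103) or pair 3 (0.0651), where those of the other 4 genes held. With a library left out its log2 fold change ran from 0.68 without Drp1 KO library 1 to 1.39 without WT library 1.

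*Ddit4* encodes REDD1, an inhibitor of mTORC1 that hypoxia and glucocorticoids also raise. It had 29.3, 19.98 and 19.1 CPM in WT and 44.9, 31.7 and 28.8 CPM in Drp1 KO, and only WT library 1 reached into the Drp1 KO range. Its pair differences were close to each other, at 0.61, 0.67 and 0.59 on the log2 scale. The log2 fold change was 0.62 ± 0.201 (adjusted p = 0.139, edgeR), and in the paired fit 0.62 ± 0.0820 (adjusted p = 0.000906). By genotype alone the value was 0.40 without Drp1 KO library 1 and 0.84 without WT library 1, the lowest and the highest with a library left out.

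**Figure D2:**
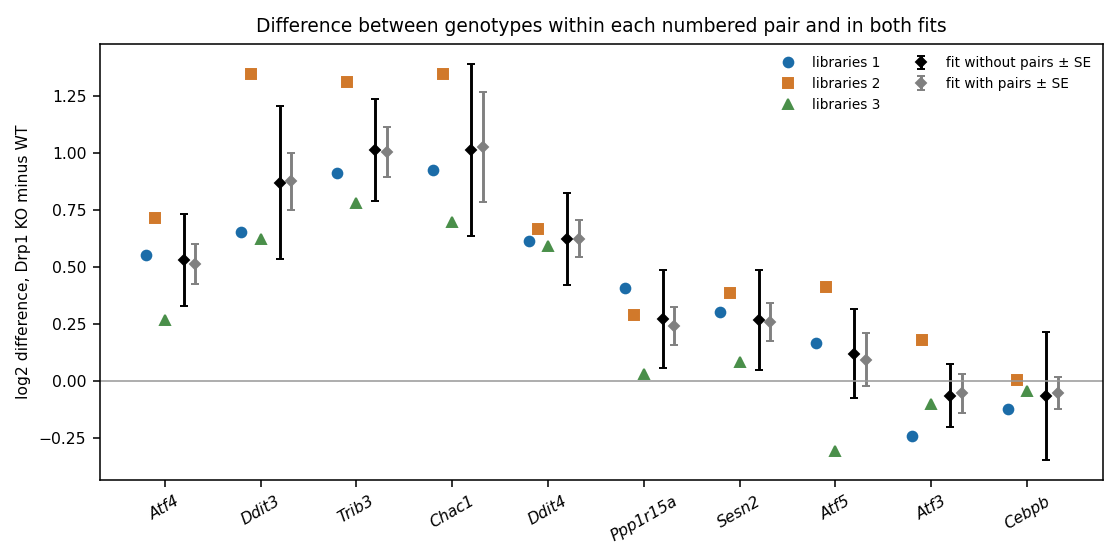
Log2 difference of Drp1 KO minus WT for each regulator (vertical axis). Colored symbols are the 3 pairs of libraries with the same number, black diamonds the edgeR fit of genotype alone and grey diamonds the fit with the pairs as a block, with bars of ± 1 SE. The grey bars are shorter than the black bars for all 10 genes, and every pair lies above 0 for 7 of them.

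*Sesn2* and *Ppp1r15a* had Drp1 KO levels above WT in all 3 pairs but passed neither fit. *Sesn2*, a stress-induced sestrin that restrains mTORC1, had 73.8, 47.5 and 48.8 CPM in WT and 91.3, 62.2 and 51.8 CPM in Drp1 KO. Its log2 fold change was 0.27 ± 0.219 (adjusted p = 0.631, edgeR; 0.0692 in the paired fit). *Ppp1r15a* encodes GADD34, which directs protein phosphatase 1 to eIF2 and so closes the response. It had 123, 91.3 and 84.6 CPM in WT and 163, 111 and 86.4 CPM in Drp1 KO, with a log2 fold change of 0.27 ± 0.215 (adjusted p = 0.617, edgeR; 0.0969 in the paired fit). For both genes libraries 3 differed least, by 0.09 and 0.03 on the log2 scale.

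The other bZIP factors of the group did not pass in either fit, and their pairs differed in sign on the CPM scale. *Atf5*, a relative of ATF4 linked to the mitochondrial unfolded protein response, had 115, 84.3 and 89.7 CPM in WT and 129, 112 and 72.7 CPM in Drp1 KO. Drp1 KO library 3 was the lowest of all 6 libraries for this gene (log2 fold change 0.12 ± 0.195, adjusted p = 0.849, edgeR; 0.697 in the paired fit). *Atf3*, a stress-induced repressor of inflammatory genes in macrophages, had 753, 551 and 567 CPM in WT and 638, 625 and 529 CPM in Drp1 KO (log2 fold change -0.06 ± 0.136, adjusted p = 0.899, edgeR; 0.787 in the paired fit). On the TPM scale *Atf3* was lower in Drp1 KO in all 3 pairs, with 783, 594 and 618 TPM in WT and 621, 522 and 450 TPM in Drp1 KO, and with length-scaled counts the paired log2 fold change was -0.25 ± 0.0818 (adjusted p = 0.216). Of these TPM, the short form *Atf3*-202 held 307, 243 and 226 in WT and 248, 121 and 96.6 in Drp1 KO. The main form *Atf3*-201 had 474, 350 and 388 TPM in WT and 366, 398 and 347 in Drp1 KO. In pair 2 the main form was thus higher in Drp1 KO. How reads divide between the forms is an estimate. *Cebpb*, a partner of ATF4 and a factor of macrophage differentiation, had 389, 225 and 192 CPM in WT and 358, 226 and 186 CPM in Drp1 KO. Its 3 pairs differed by -0.12, 0.01 and -0.04 on the log2 scale, while library 1 was 1.73- and 1.59-fold above library 2 of the same genotype (log2 fold change -0.07 ± 0.280, adjusted p = 0.959, edgeR; 0.726 in the paired fit).

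The 10 regulators varied together within the groups. Library 1 was the highest of its group in both genotypes for 10 of 10, a pattern that 31.5% of the 12248 genes averaging 1 CPM or more shared. Drp1 KO library 3 was the lowest of its group for 10 of 10, as for 38.1% of those genes. The library number accounted for a median of 61.7% of the sum of squares of the regulators and genotype for 28.0%, against 43.5% and 27.4% over the genes averaging 1 CPM or more, so the share of genotype was close to theirs. For *Cebpb* the number took 99.2%, and for *Trib3*, where genotype took most, 25.4%. Deviations from the group means correlated above 0 in all 45 pairs of regulators, with a median r of 0.922 over the 6 libraries, which differ in depth and number. This r was not computed for pairs of other genes. Whether the regulators varied together more than other genes was therefore not tested. Without libraries 1, 3 of the 10 were called higher by genotype alone, *Trib3*, *Ddit3* and *Ddit4*, beside 5.94% of all genes. The part of depth and of the lower mitochondrial RNA of libraries 1 in these levels was not tested.

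Because the 10 genes moved together between libraries, each was also set against *Atf4* in the same library, a comparison chosen after their values were seen. *Trib3* relative to *Atf4* had log2 ratios of -3.19, -3.31 and -3.32 in WT and -2.83, -2.71 and -2.81 in Drp1 KO, 0.49 higher with no overlap. *Ddit3*, *Chac1* and *Ddit4* were 0.36, 0.53 and 0.11 higher relative to *Atf4*, and their groups overlapped. The other genes lay lower relative to *Atf4* in Drp1 KO with no overlap, *Atf3* and *Cebpb* by a difference of -0.57 each, *Atf5* by -0.42, *Ppp1r15a* by -0.27 and *Sesn2* by -0.25. Of the 12247 other genes averaging 1 CPM or more, 24.7% lay lower relative to *Atf4* with no overlap and 1.22% higher, and *Atf4* itself was higher in Drp1 KO in each pair. For the 6 of 9 ratios that did not overlap, the exact two-sided permutation p was 0.1, the smallest possible here, and 0.15 after Benjamini-Hochberg adjustment over the 9 ratios, so none passes. These ratios share *Atf4* and are not independent of each other.

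**Figure D3:**
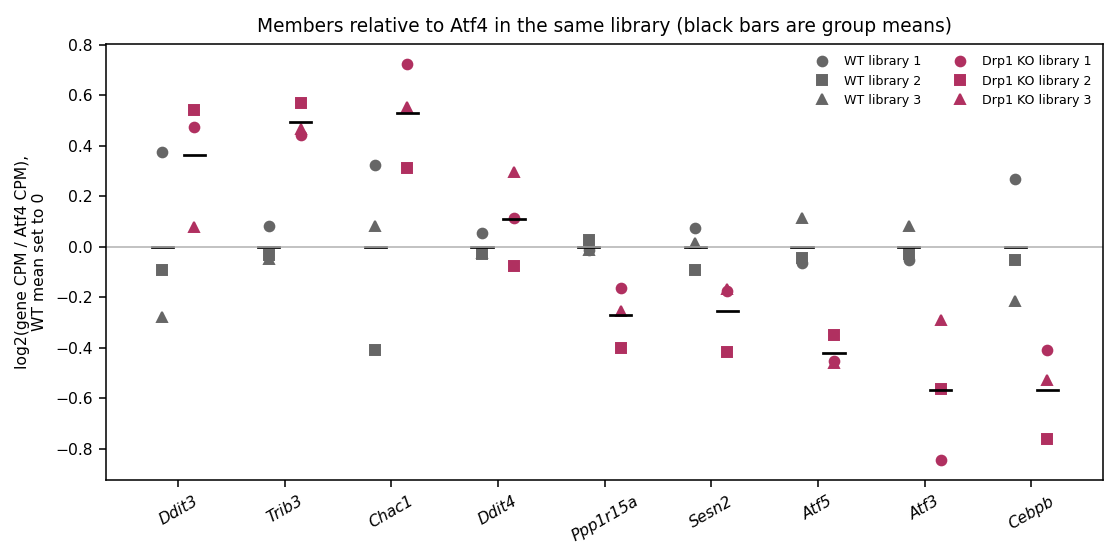
Log2 ratio of each regulator to *Atf4* in the same library (vertical axis, with the WT mean set to 0). Grey symbols are WT and red symbols Drp1 KO libraries, shaped by library number, and black bars are group means over 3 libraries. The Drp1 KO libraries of *Trib3* all lie above WT and those of *Ppp1r15a*, *Sesn2*, *Atf5*, *Atf3* and *Cebpb* all below.

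Levels per transcript length (TPM, mean of the 6 libraries) ranged from 598 for *Atf3* to 1.26 for *Chac1*. *Atf3* was above *Ddit3*, the next gene, in 6 of 6 libraries. *Ddit3* at 192, *Cebpb* at 174 and *Atf4* at 151 TPM overlapped in range, and *Ddit3* was above *Cebpb* in 3 of 6 libraries. *Atf4* was above *Atf5* (63.6 TPM) in 6 of 6 libraries, and the ranges of *Atf5* and *Ppp1r15a* (54.6 TPM) overlapped. *Sesn2*, *Ddit4* and *Trib3* ranged from 15.3 to 27.9, 13.4 to 28.6 and 11.0 to 28.1 TPM, and *Trib3* was above *Chac1* in every library.

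The 5′ leaders of the main transcripts hold upstream start codons in 6 of the 10, against 63.0% of the 15772 protein-coding genes with such a leader. In 2 of the 10, and in 19.6% of those genes, a frame opened upstream overlaps the main start. *Atf4* has 3 upstream start codons in a leader of 607 bases, and 1 of their frames, of 59 codons, overlaps the main start. *Atf5* has 6, of which 2 open frames that overlap the start, *Ppp1r15a* has 3, *Ddit3* 2, and *Atf3* and *Sesn2* 1 each. *Trib3*, *Chac1*, *Ddit4* and *Cebpb* have none. Of the 5 genes that passed the paired fit, *Atf4* and *Ddit3* are of the first kind and *Trib3*, *Chac1* and *Ddit4* of the second.

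Estimated counts per transcript say which annotated form carried each gene, with no test, since kallisto divides shared reads between forms. *Atf4*-201 took 96.2% of the *Atf4* counts and *Ddit3*-201 took 89.1% of those of *Ddit3*. In *Atf5* the minor form *Atf5*-201 took 16.4%, 18.8% and 20.8% of the counts in WT and 28.3%, 26.4% and 25.1% in Drp1 KO, with no overlap, and *Atf5*-202 took all the others. Of 20479 forms that hold 5% to 95% of the counts of their gene (genes averaging at least 100 counts), 11.3% had a share higher in Drp1 KO with no overlap, and of 6 such forms of the regulators this was 1. In *Atf3*, *Atf3*-202, a form with no annotated coding sequence, took 9.88%, 10.4% and 9.08% in WT and 10.5%, 4.89% and 4.54% in Drp1 KO, so that Drp1 KO library 1 lay with WT. Exons of 4 regulators overlap genes on the other strand: *Cebpb* shares 312 of 1504 exon bases with *Peds1*, *Atf5* 82 of 2017 with *Nup62* and *Il4i1*, *Ddit3* 74 of 1802 with *Mars1* and *Ppp1r15a* 12 of 2937 with *Tulp2*. The strand setting of the counting is not stated, and reads there may come from either gene. A second annotated gene entry named *Ddit3* had 0 counts.

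Of the 32 further genes known as ATF4 targets, 31 were tested, and 26 of these were higher and 5 lower in Drp1 KO, with a median log2 fold change of 0.28 against 0.00 over all genes. By genotype alone 4 were called higher and none lower, and in the paired fit 14 and none, beside 2.29% and 6.73% of all genes called higher. The 4 were *Psat1* and *Phgdh* of serine synthesis, the asparagine synthetase *Asns* and the tryptophanyl-tRNA synthetase *Wars1*. *Psat1* had 7.76, 6.97 and 5.14 CPM in WT and 16.4, 12.8 and 11.1 CPM in Drp1 KO (log2 fold change 1.02 ± 0.195, adjusted p = 0.0212, edgeR). *Asns* had 41.2, 29.0 and 24.1 CPM in WT and 56.8, 63.0 and 48.5 CPM in Drp1 KO (0.84 ± 0.182, adjusted p = 0.0356). *Phgdh* and *Wars1* had log2 fold changes of 0.92 ± 0.212 and 0.61 ± 0.132 (adjusted p = 0.0455 and 0.0357), also with no overlap between groups. Like *Trib3*, these 4 genes had all Drp1 KO libraries above all WT libraries, library 1 of WT included. None of the 4 was called with counts scaled for transcript length (adjusted p = 0.0545 to 0.293, edgeR), without WT library 2 (0.106 to 0.210), without WT library 3 (0.0975 to 0.207) or without Drp1 KO library 2 (0.0733 to 0.153). *Asns*, *Phgdh* and *Wars1* were also lost without Drp1 KO library 1 (0.0571 to 0.0832), and *Phgdh* and *Wars1* without Drp1 KO library 3 (0.0550 and 0.0576). *Phgdh* also missed the threshold with median-of-ratios size factors (0.0513). In libraries 2 and 3 only, 11 genes of the list were called higher and 1 lower, beside 5.94% and 4.56% of all genes. The lower gene was *Slc7a11*, the light chain of the cystine transporter, with 571, 599 and 595 CPM in WT and 570, 438 and 441 CPM in Drp1 KO. Its groups did not overlap, although WT and Drp1 KO libraries 1 were nearly equal. Over all libraries its log2 fold change was -0.28 ± 0.118 (adjusted p = 0.259, edgeR; 0.0676 in the paired fit), and -0.44 in libraries 2 and 3 only (adjusted p = 0.00818). *Mars1*, a member of this list, shares exon bases with *Ddit3*.

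Of 4 known CHOP targets, 3 were higher, with a median log2 fold change of 0.30, and none passed by genotype alone. In the paired fit 1, *Bbc3*, was called higher, beside 6.73% of all genes (log2 fold change 0.43, adjusted p = 0.0266, and 0.0853 and 0.132 without pair 1 or 2). *Ero1a*, an endoplasmic reticulum (ER) oxidase, had 1684, 1463 and 1408 CPM in WT and 1919, 1868 and 1470 CPM in Drp1 KO (log2 fold change 0.21 ± 0.128, adjusted p = 0.486, edgeR; 0.055 with length-scaled counts and 0.13 to 0.32 with a library left out), and *Bcl2l11*, a pro-apoptotic BH3 gene, had -0.03 ± 0.103 (adjusted p = 0.939).

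Upstream of *Atf4*, none of 14 genes of the eIF2 kinases, eIF2, its exchange factor and its phosphatase passed by genotype alone. The paired fit called 2 higher and 1 lower, beside 6.73% and 5.22% of all genes. In the paired fit *Eif2ak2*, the gene of the kinase PKR, and *Eif2s1*, the eIF2 subunit that the kinases phosphorylate, were called higher (log2 fold changes 0.53 and 0.39, adjusted p = 0.00569 and 0.0102). *Eif2ak3*, the gene of PERK, was called lower (-0.32, adjusted p = 0.0340). None of these 3 calls held without pair 3 (adjusted p = 0.0731 to 0.132), and those of *Eif2s1* and *Eif2ak3* were also lost without pair 2 (0.0692 and 0.274). *Ppp1cb* and *Ppp1ca*, catalytic subunits of protein phosphatase 1, had log2 fold changes of 0.22 ± 0.0968 and 0.01 ± 0.0891. The 6 genes of the mitochondrial stress relay (*Oma1*, *Dele1*, *Opa1*, *Yme1l1*, *Phb1* and *Phb2*) passed in neither fit, and of these *Opa1* had -0.16 ± 0.0851 and *Yme1l1* 0.24 ± 0.108 (adjusted p = 0.414 and 0.297, edgeR).

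The counts of the remaining lists stand beside 2.29% of all genes called higher and 1.06% lower by genotype alone, and 6.73% and 5.22% in the paired fit. Of 17 genes of the ER unfolded protein response none passed by genotype alone, with a median of 0.02, and in the paired fit *Dnajb9* and *Ern1* were called higher and *Hsp90b1*, an ER chaperone, lower (log2 fold changes 0.42, 0.32 and -0.38). *Dnajb9* kept its call with each pair left out in turn, while *Hsp90b1* lost it without pair 2 (adjusted p = 0.110) and *Ern1* without pair 2 or 3 (0.284 and 0.114). *Calr*, another ER chaperone, had -0.30 ± 0.127 (adjusted p = 0.264, edgeR). Of 10 mitochondrial chaperones and proteases, none passed by genotype alone and 1 was called higher and 2 lower in the paired fit. The 2 lower were *Trap1* and *Lonp1* (paired log2 fold changes -0.31 and -0.35, adjusted p = 0.0279 and 0.0336). By genotype alone *Hspa9* had 0.33 ± 0.150 and *Afg3l2* 0.05 ± 0.104. *Hspa9*, the gene called higher in the paired fit, had 0.71 with length-scaled counts and 0.20 to 0.47 with a library left out, and its paired call was lost without pair 2 (adjusted p = 0.160) or pair 3 (0.0556). Of 15 hypoxia genes, 11 were lower and none was called by genotype alone. The paired fit called 2 lower, *Adm* and *Bnip3* (log2 fold changes -0.68 and -0.26, adjusted p = 0.000777 and 0.0497). *Ndrg1* and *Ldha*, the most abundant of the list, passed neither fit and had -0.04 ± 0.133 and 0.13 ± 0.109 by genotype alone.

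Of 12 p53 targets, 9 were higher, with a median log2 fold change of 0.30, and 2 were called higher by genotype alone. In the paired fit 6 were called higher and 2 lower. *Eda2r* had 1.03, 0.862 and 1.09 CPM in WT and 2.27, 2.81 and 2.15 CPM in Drp1 KO (log2 fold change 1.27 ± 0.259, adjusted p = 0.0269, edgeR), and *Trp53inp1* had 0.46 ± 0.0992 (adjusted p = 0.0329). Of 13 immediate early genes, the phosphatase gene *Dusp1* was called higher (0.62 ± 0.130, adjusted p = 0.0302), while *Klf6* and *Jun* had 0.27 ± 0.0968 and -0.41 ± 0.174 (adjusted p = 0.183 and 0.271) and the paired fit called 2 higher and 1 lower. *Eda2r*, *Trp53inp1* and *Dusp1* were not called with length-scaled counts (adjusted p = 0.0876 to 0.209, edgeR) or without WT library 2 (0.143 to 0.196), WT library 3 (0.104 to 0.175) or Drp1 KO library 3 (0.0643 to 0.0983). Without Drp1 KO library 2 *Eda2r* and *Trp53inp1* were lost too (0.146 and 0.145), and *Dusp1* without Drp1 KO library 1 (0.0528) or WT library 1 (0.0554). Of 17 mTORC1 regulators, through which *Ddit4* and *Sesn2* are known to act, none was called by genotype alone and 1 in each direction in the paired fit, and *Rragc* and *Tsc1* had 0.15 ± 0.144 and 0.04 ± 0.119. *Rragc* ran from 0.04 without WT library 3 to 0.34 without WT library 1, and was called in libraries 2 and 3 only (0.29, adjusted p = 0.0444). Of 14 family relatives of the 10 genes that were tested, none was called by genotype alone and 1 was called higher and 2 lower in the paired fit. *Ppp1r15b*, the constitutive partner of the phosphatase that *Ppp1r15a* serves, had 0.23 ± 0.128, and *Cebpg*, a C/EBP partner of ATF4, 0.15 ± 0.104 (adjusted p = 0.421 and 0.537, edgeR).

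**Figure D4:**
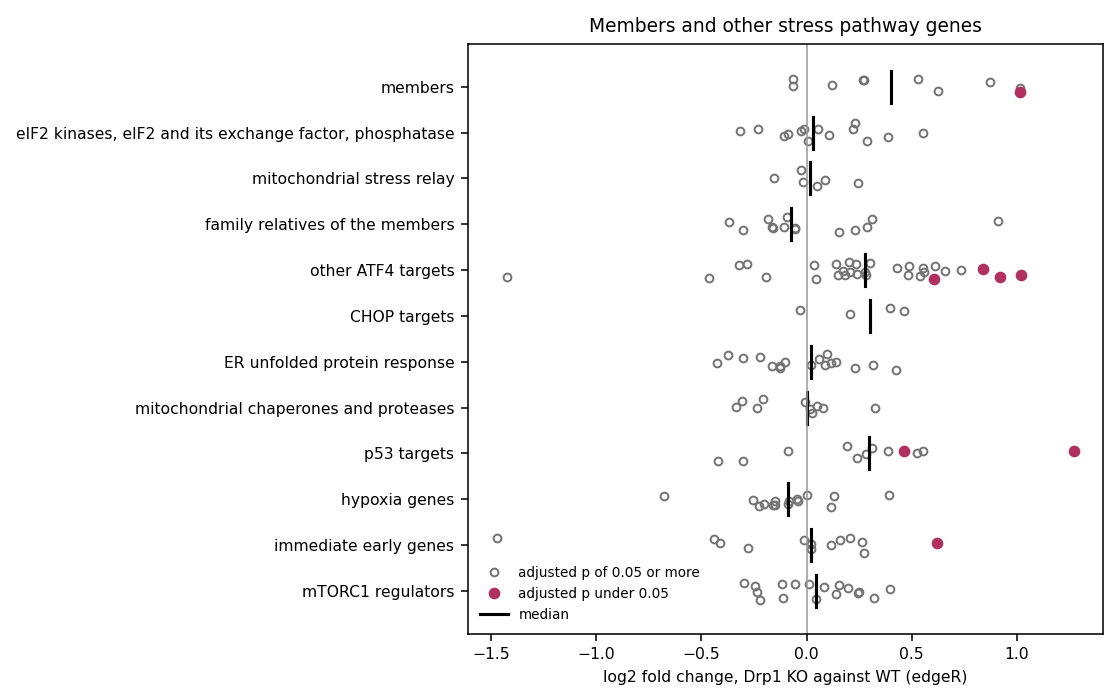
Log2 fold change of Drp1 KO against WT (horizontal axis, edgeR fit of genotype alone) for the 10 regulators and 11 lists of other pathway genes. Each circle is 1 gene, filled red where the adjusted p was under 0.05, and black bars are list medians. Medians are 0.40 for the regulators, 0.30 for CHOP targets, 0.30 for p53 targets and 0.28 for other ATF4 targets. Of the 8 filled circles, 4 are among the 31 other ATF4 targets tested and 2 among the 12 p53 targets.

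The 5 genes whose levels followed the mean standardized log2 CPM of the 10 regulators most closely across the 6 libraries were *Tbc1d9* (r = 0.999), *Rab33a* (0.997), *Slc3a2* (0.996), *Kctd6* (0.995) and *Plcxd2* (0.995). *Slc3a2*, the heavy chain of amino acid transporters, is also among the known ATF4 targets. It had 280, 209 and 210 CPM in WT and 331, 266 and 228 CPM in Drp1 KO. Of 12238 genes, 613 had r above 0.9 and 209 above 0.95. The 6 libraries differ in depth and number, and no test was made of these values.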

How the data were processed

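The 10 regulators and the lists of other genes were chosen with earlier results of these data known. The authors quantified paired-end reads against Ensembl cDNA of GRCm39 with kallisto 0.46.1, and the deposited files give, for each of 116873 transcripts in each library, an estimated count, not scaled between libraries, and a TPM value. The labels name a stranded mRNA kit, and the strand setting of kallisto is not given in the sources used here. Transcripts were matched by identifier to GENCODE, and 116159 (99.4%) matched. Transcripts left out held 0.542% to 0.575% of the counts of each library. Estimated counts were summed per gene and rounded, which carries transcript-assignment error into the sums.

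Genes with at least 10 counts in total were tested with the edgeR 4.0.16 quasi-likelihood test in R 4.3.3, with TMM factors, no covariate, and Benjamini-Hochberg adjustment over all genes. Each SE is the fitted log2 fold change over the root of the F statistic. CPM are on TMM-scaled library sizes. Tested on simulated data of 18120 genes with 200 changed 2-fold, this fit recovered 74% of them with 9 false calls. The simulation drew each gene independently, with no effect of library number, and changed only genes averaging 1 CPM or more. These figures may therefore not hold for the real libraries, and the paired fit was not simulated. The study instead used DESeq2 (version 1.42.0 here), with a minimum fold change and a p of 0.05 before adjustment. Both groups carry library numbers 1 to 3. Deviations from the group means correlated at 0.510, 0.204 and 0.298 between same-numbered libraries over 12248 genes. With all values above 0.1, same-numbered libraries were treated as pairs, on the data and not on a stated design, although WT library 2 correlated better with Drp1 KO library 3 (0.326) than with library 2. No library was a copy of another.

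The named genes are the 10 regulators, *Dnm1l*, the called genes of each list (at most 6), or its 2 most abundant where fewer than 2 were called, and the 5 genes most alike. Genes from the paired fit (*Bbc3*, *Eif2ak2*, *Eif2ak3*, *Eif2s1*, *Dnajb9*, *Ern1*, *Trap1*, *Lonp1*, *Adm* and *Bnip3*) and *Slc7a11* were named after their values were seen. Marker lists of other cells gave no calls: beside neutrophils, the summed levels in WT and Drp1 KO were 4.79 to 7.31 and 2.77 to 5.80 CPM for dendritic cells, 20.5 to 36.2 and 26.4 to 58.8 CPM for lymphocytes, 14.0 to 21.6 and 13.6 to 16.7 CPM for fibroblasts, and 2.20 to 4.65 and 3.73 to 4.08 CPM for mast cells. Of the 8 macrophage markers, 1 was called higher and 2 lower. Promoters and leaders were read from GRCm39 with GENCODE transcripts.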

Additional observations from a re-analysis of the deposited data

How the results depend on the processing

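The number of regulators called was 1 by genotype alone and also 1 with library size only, with median-of-ratios size factors and with filterByExpr. It was 2 with DESeq2 (*Trib3* and *Ddit4*), 3 with no filter beyond 1 count, 0 with length-scaled counts and 0 to 3 with a library left out. With the pairs as a block it was 5. Settings chosen after seeing the data gave 3 in libraries 2 and 3 only, 5, 4 and 4 in the block without pair 1, 2 or 3, and 0 in the block with length-scaled counts. By the criteria of the study the 5 regulators became 4 with DESeq2, 2 with length-scaled counts and 1 to 7 with a library left out. Over all genes 621 calls became 1155 with DESeq2, 167 with length-scaled counts, 1065 with no filter beyond 1 count, 181 to 904 with a library left out, 2212 with the block, 1880 in libraries 2 and 3 only, 2769, 1150 and 821 in the block without pair 1, 2 or 3, and 1 in the block with length-scaled counts. For the genes of the other lists, 7 calls became 17, 0, 14, 0 to 14, 41, 35, then 47, 14 and 14, and 0 under the same settings. The cause of the loss with length-scaled counts was not tested.

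Signs held under all settings for *Trib3*, *Ddit3*, *Chac1*, *Ddit4* and *Atf4*, whose values with a library left out stand beside them in the text, except that *Trib3* ran from 0.833 to 1.246. Log2 fold changes that turned, none past the threshold, were those of *Atf3* (0.042 in libraries 2 and 3 only, 0.038 in the block without pair 1) and *Atf5* (-0.065 in the block without pair 2). With length-scaled counts *Cebpg* moved from 0.15 to 0.32 and *Ldha* from 0.13 to 0.043, and in libraries 2 and 3 only *Yme1l1*, *Klf6* and *Jun* were called (adjusted p = 0.0308, 0.0389 and 0.0183). With a library left out, *Atf3* ran from -0.16 to 0.092, *Atf5* from -0.072 to 0.33, *Cebpb* from -0.40 to 0.30, *Ppp1r15a* from -0.022 to 0.47 and *Sesn2* from -0.0040 to 0.50. Of the other genes, *Afg3l2* ran from -0.050 to 0.12, *Bcl2l11* from -0.12 to 0.035, *Ndrg1* from -0.14 to 0.075, *Ppp1ca* from -0.046 to 0.034 and *Tsc1* from -0.044 to 0.16. *Ndrg1* had 0.0081 in libraries 2 and 3 only and 0.0013 and 0.039 in the block without pair 1 or 2, and *Tsc1* -0.013 with length-scaled counts and -0.0073 with these in the block. *Ppp1ca*, near 0 throughout, had -0.0057 with DESeq2 and with median-of-ratios factors, -0.0083 with library size only, -0.0067 with filterByExpr, -0.0023 with no filter beyond 1 count, -0.0092 in libraries 2 and 3 only, and -0.0087 and -0.011 in the block without pair 1 or 2.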
